A study of Arabidopsis thaliana with 18 samples.

Results

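Seedlings of Arabidopsis thaliana that carry the ros1-4 allele were compared with wild type seedlings after mock treatment, at the level of messenger RNA. The 6 libraries, 3 of ros1-4 mock and 3 of wild type mock, were chosen by the genotype and treatment in their labels, out of 18 in the series. The whole series sequenced RNA of wild type, ros1-3 and ros1-4 seedlings in both treatments. Whole seedlings 12 d old, grown in long days, were submerged for 6 h in water with the solvent alone (mock) or with 50 µM abscisic acid (ABA), the hormone of drought responses. Each library came from RNA of a pool of 5 plants. The wild type mock group thus carried no mutation and received no hormone, and the ros1-4 mock group differed from it by the ros1-4 allele alone as far as the labels say. The accession of the wild type, how the alleles were made and whether pools were grown apart are not stated in the labels, so p-values measure only how these pools vary. In RNA from whole seedlings, fewer cells of a type and less RNA per cell cannot be told apart.

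ROS1 is a DNA glycosylase that cuts 5-methylcytosine out of DNA, the first step of active DNA demethylation in plants. It acts mostly on methylation that the RNA-directed pathway places on transposons and on genes close to them, and loss of ROS1 is known to let methylation spread into some promoters. A known effect is in the leaf epidermis, where the EPF2 gene becomes methylated and clusters of small cells form. DNA methylation was not measured in these libraries.

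By edgeR's quasi-likelihood test with Benjamini-Hochberg adjustment over 15853 genes, 71 genes passed an adjusted p under 0.05, which is 0.448% of those tested. Of these, 54 (0.341%) were lower in ros1-4 and 17 (0.107%) were higher. The falls were also larger: 42 genes fell and 10 rose by more than 2-fold, and 21 fell and 1 rose by more than 4-fold. The lower genes included ROS1 itself, the stomatal signal EPF2, the methionine sulfoxide reductase MSRB5, the wall genes EXPA8 and PRP2, and 5 loci annotated as pseudogenes. The higher genes included the receptor gene TMM, the potassium transporter HAK5, the sugar transporter SWEET1 and a pair of neighbouring genes on chromosome 4. The median log2 fold change over all genes was 0.0038, and 1096 genes had an unadjusted p under 0.05. In all 71 genes the 3 libraries of one genotype lay outside the range of the other, as they did in 11.6% of all genes tested.

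**Figure D1:**
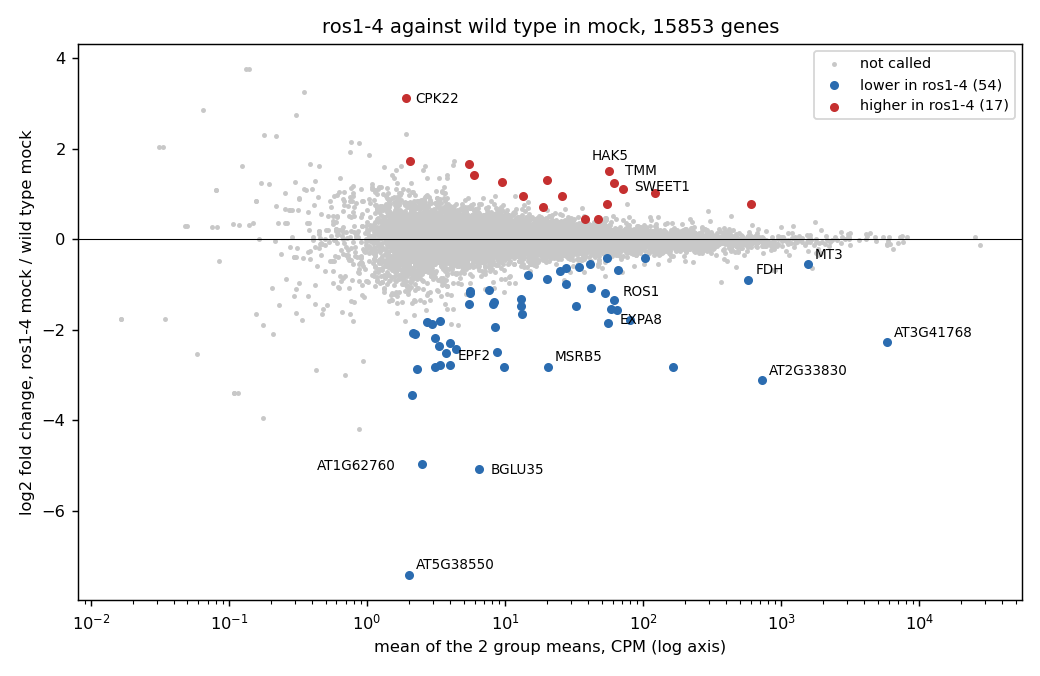
Each point is 1 of 15853 genes. The x axis (log) gives the mean of both group means in CPM, which are counts scaled by library size and scaling factor. The y axis gives the log2 fold change of ros1-4 over wild type in mock. The 54 genes called lower (blue) reach further from 0 than the 17 called higher (red), of which CPK22 is the only one past 4-fold. The fitted value of AT5G38550, which had no read in ros1-4, depends on the prior count and is no bound.

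The libraries of the 2 genotypes differed in more than their genes. Counted reads ran from 3865324 to 10275773 in wild type and from 3920193 to 5096466 in ros1-4. Multiply aligned reads made 9.80% to 13.0% of all reads listed in wild type mock and 3.46% to 4.62% in ros1-4 mock. That difference had an exact two-sided permutation p of 0.1, the smallest that 3 against 3 libraries allow. With this share as a covariate in the edgeR fit, 7 of the 71 calls held (ROS1, MSRB5, ZW9, AT1G08940, AT1G62760, AT2G33830 and AT3G18560) and 70 had the same sign. In mock the share did not overlap between the genotypes. The fit, over all 18 libraries, thus separates share and genotype only through the spread of the share within groups. The calls of 36 genes, 30 lower and 6 higher, held in the other 15 alternatives wherever these gave a value, apart from a minimum fold of 1.5. On the first principal component of the 6 libraries (28.7% of the variance), replicate 3 of wild type (-1.23) and of ros1-4 (1.95) lay close together, between the other libraries of wild type (-22.4 and -22.4) and of ros1-4 (26.6 and 17.6). Of 10 root markers, 12 leaf photosynthesis genes and 6 seed and floral markers, none passed the test, for which 10, 11 and 0 of them had enough reads. Over all genes 0.448% passed. Summed root marker levels were 162 to 235 CPM in wild type and 150 to 204 in ros1-4 before scaling. Summed photosynthesis levels were 53410 to 60420 and 51630 to 62590 CPM. Seed and floral markers summed to 0.0973 to 0.259 CPM in wild type and 0.765 to 2.75 in ros1-4, where 2 of 6 had no read in any of the 6 libraries. Apart from the fit with the covariate, the part of these differences in the results below was not tested.

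Reads of ROS1 were still found in ros1-4, but fewer than in wild type. Its level was 94.6, 82.6 and 86.1 CPM in the 3 wild type mock libraries and 38.4, 31.5 and 33.5 CPM in those of ros1-4. Every ros1-4 library lay far below the lowest wild type library. The log2 fold change was -1.34 (SE 0.12, edgeR adjusted p = 3.68e-07). Where along the transcript these reads lie cannot be read from counts per gene. In TAIR10.1 the gene occupies chr2:15307907-15314807 (minus strand). Of the 4 tested genes of active demethylation, ROS1 was the only one called, beside 0.448% of all genes. MBD7, a methyl-DNA binding protein that guides demethylation, had 0.26 (SE 0.17, edgeR adjusted p = 0.833). DML2, a glycosylase of the same family, had 0.12 (SE 0.20, adjusted p = 0.97 by edgeR). None of 11 tested genes of DNA methylation passed the test, and their median log2 fold change was -0.02. Those with the smallest p were SUVH4, a histone methyltransferase, at 0.28 (SE 0.22), and CMT3, a chromomethylase, at -0.22 (SE 0.17).

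Genes of the stomatal lineage, which makes the pores of the leaf epidermis, moved in both directions. EPF2 is a secreted peptide that limits how many epidermal cells enter this lineage. It had 6.01, 6.58 and 8.45 CPM in wild type and 1.59, 0.727 and 0.748 CPM in ros1-4, so every ros1-4 library lay far below every wild type library. EPF2 fell, with a log2 fold change of -2.78 (SE 0.36, adjusted p = 8.27e-05) by edgeR. TMM is a receptor-like protein that takes part in sensing such peptides. Its level was 38.04, 33.5 and 38.2 CPM in wild type and 83.2, 86.3 and 92.1 CPM in ros1-4, about as tight within each group, and the groups did not overlap. TMM rose, with 1.25 (SE 0.10, adjusted p = 2.1e-07) with edgeR. Of 16 tested genes of the lineage, 1 rose, 1 fell and 14 did not pass, beside 0.448% called over all genes. Their median was 0.17, with 11 of the 16 above 0, where 50.9% of all genes lay above 0. SPCH, the factor that starts the lineage, had 7.51, 7.398 and 9.05 CPM in wild type and 11.7, 14.3 and 21.3 CPM in ros1-4. These groups did not overlap either, but its log2 value of 0.96 (SE 0.23) missed the threshold at an edgeR adjusted p of 0.0709, though it passed in 3 of the alternatives. The protease gene SDD1 had 0.63 (SE 0.23, adjusted p = 0.478) and the polarity gene POLAR had 0.696 (SE 0.34, adjusted p = 0.726) by edgeR. The peptide gene EPF1 had 0.36 (SE 0.20) and the guard cell factor FAMA 0.21 (SE 0.13).

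**Figure D2:**
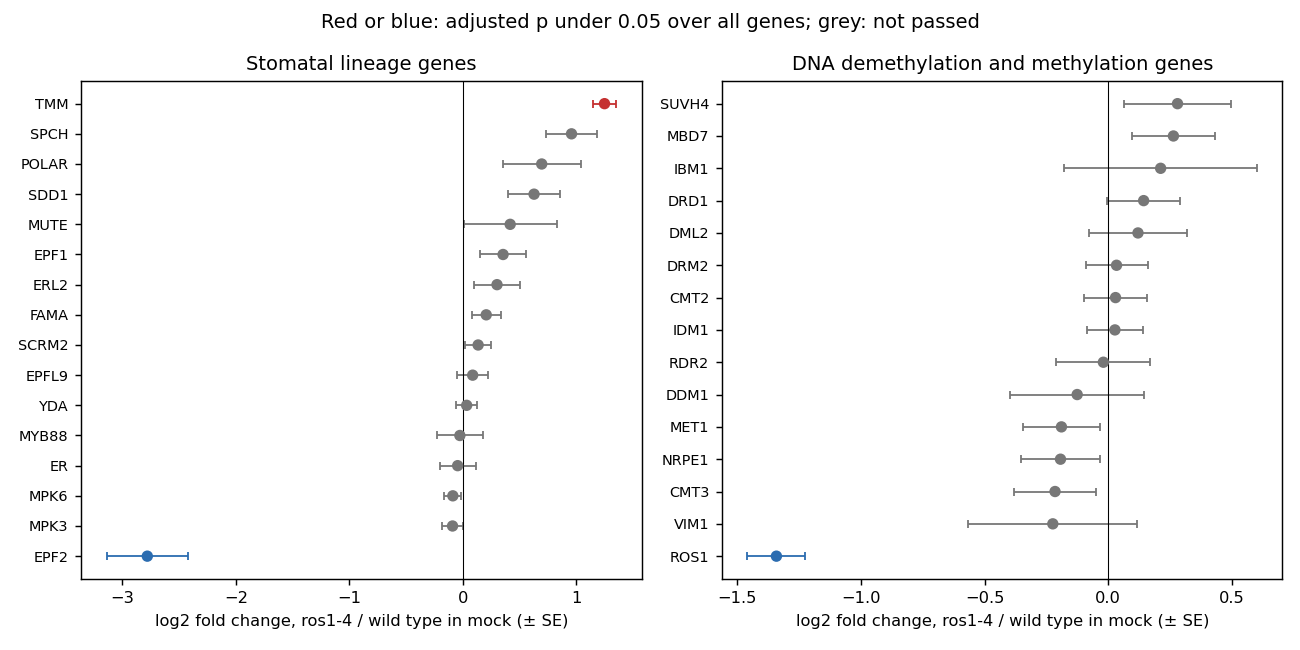
Log2 fold changes of ros1-4 over wild type in mock (x axis, with SE) for the tested genes of the stomatal lineage (left) and of DNA demethylation and methylation (right). TMM (1.25), EPF2 (-2.78) and ROS1 (-1.34) are the coloured points, which passed the test, and the grey ones did not.

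The promoters of ROS1, EPF2 and TMM are shown because these were the called genes among those of active demethylation and of the stomatal lineage. Methylation of these promoters was not measured. Each is the run of 250 bases before the annotated gene start in RefSeq TAIR10.1, 5′ to 3′ on the strand of the gene. ROS1 lies at chr2:15314808-15315057 (minus strand), EPF2 at chr1:12472618-12472867 (plus strand) and TMM at chr1:30129650-30129899 (minus strand). Capitals mark matches, on either strand, to the motifs CACGTG (G-box), TTGACC or TTGACT (W-box), TATAAA and TGGGCC (site II).
ROS1: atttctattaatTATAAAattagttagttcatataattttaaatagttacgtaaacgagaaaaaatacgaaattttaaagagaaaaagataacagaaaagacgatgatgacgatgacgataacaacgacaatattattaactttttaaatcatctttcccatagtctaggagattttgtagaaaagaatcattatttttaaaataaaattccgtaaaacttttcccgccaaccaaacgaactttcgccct
EPF2: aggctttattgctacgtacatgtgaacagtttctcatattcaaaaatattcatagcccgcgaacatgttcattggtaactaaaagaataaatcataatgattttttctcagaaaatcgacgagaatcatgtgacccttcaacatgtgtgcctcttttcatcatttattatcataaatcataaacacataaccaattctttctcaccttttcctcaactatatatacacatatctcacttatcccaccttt
TMM: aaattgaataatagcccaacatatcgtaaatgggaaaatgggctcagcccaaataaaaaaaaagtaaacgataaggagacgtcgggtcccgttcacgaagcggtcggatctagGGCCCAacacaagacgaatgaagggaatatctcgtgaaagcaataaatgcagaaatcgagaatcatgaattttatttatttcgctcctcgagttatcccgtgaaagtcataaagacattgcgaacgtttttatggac
ROS1 held TATAAA, which starts 238 bases before the gene, TMM held a site II match on the other strand at 137 bases before it, and EPF2 held none of these letters in this window. The numbers of CG pairs, the sites of the most common plant methylation, were 11 in ROS1, 5 in EPF2 and 16 in TMM, beside a median of 5 over 15841 promoters. The nearest tested genes on each side of EPF2 and TMM were not called. SERK2 and FAB1D beside EPF2 had log2 values of 0.12 and -0.04, and AT1G80070 and PP2-B11 beside TMM had -0.08 and 0.06.

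Methionine sulfoxide reductases of the B type repair oxidised methionine in proteins, and several of their genes lie in a row on chromosome 4. MSRB5 had 34.8, 44.4 and 27.8 CPM in wild type and 5.58, 5.57 and 3.92 CPM in ros1-4, with no overlap. It fell, with a log2 fold change of -2.81 (SE 0.22, adjusted p = 8.32e-08) with edgeR. MSRB4, which lies close by, had 9.01, 8.22 and 4.48 CPM in wild type and 1.19, 2.91 and 1.495 CPM in ros1-4. Here too every ros1-4 library was below every wild type library, but MSRB4 at -1.904 (SE 0.46, edgeR adjusted p = 0.0792) was not called, while DESeq2 called it, as did 2 alternatives with edgeR. Under ABA, in other libraries, MSRB4 passed with -2.89 (edgeR adjusted p = 0.00274). The outer genes of the row were not called: MSRB3 had -0.01 (SE 0.10) and MSRB6 had 0.04 (SE 0.16). Of 10 tested reductases, only MSRB5 was called by edgeR, beside 0.448% of all genes, and the median was -0.01. Reads that align to several neighbouring copies of a family are counted for none of them, so values within the row are uncertain to that extent. The MSRB5 promoter, at chr4:2445525-2445774 on the plus strand, is shown because the fall of this gene was among the 7 that held with the covariate.
MSRB5: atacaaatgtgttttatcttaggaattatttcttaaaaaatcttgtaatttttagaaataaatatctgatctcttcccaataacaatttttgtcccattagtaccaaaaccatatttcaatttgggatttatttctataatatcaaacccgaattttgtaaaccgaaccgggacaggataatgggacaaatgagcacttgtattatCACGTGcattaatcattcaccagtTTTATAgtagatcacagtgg
It held a G-box 44 bases before the gene and the reverse of TATAAA 20 bases before it, both in capitals.

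**Figure D3:**
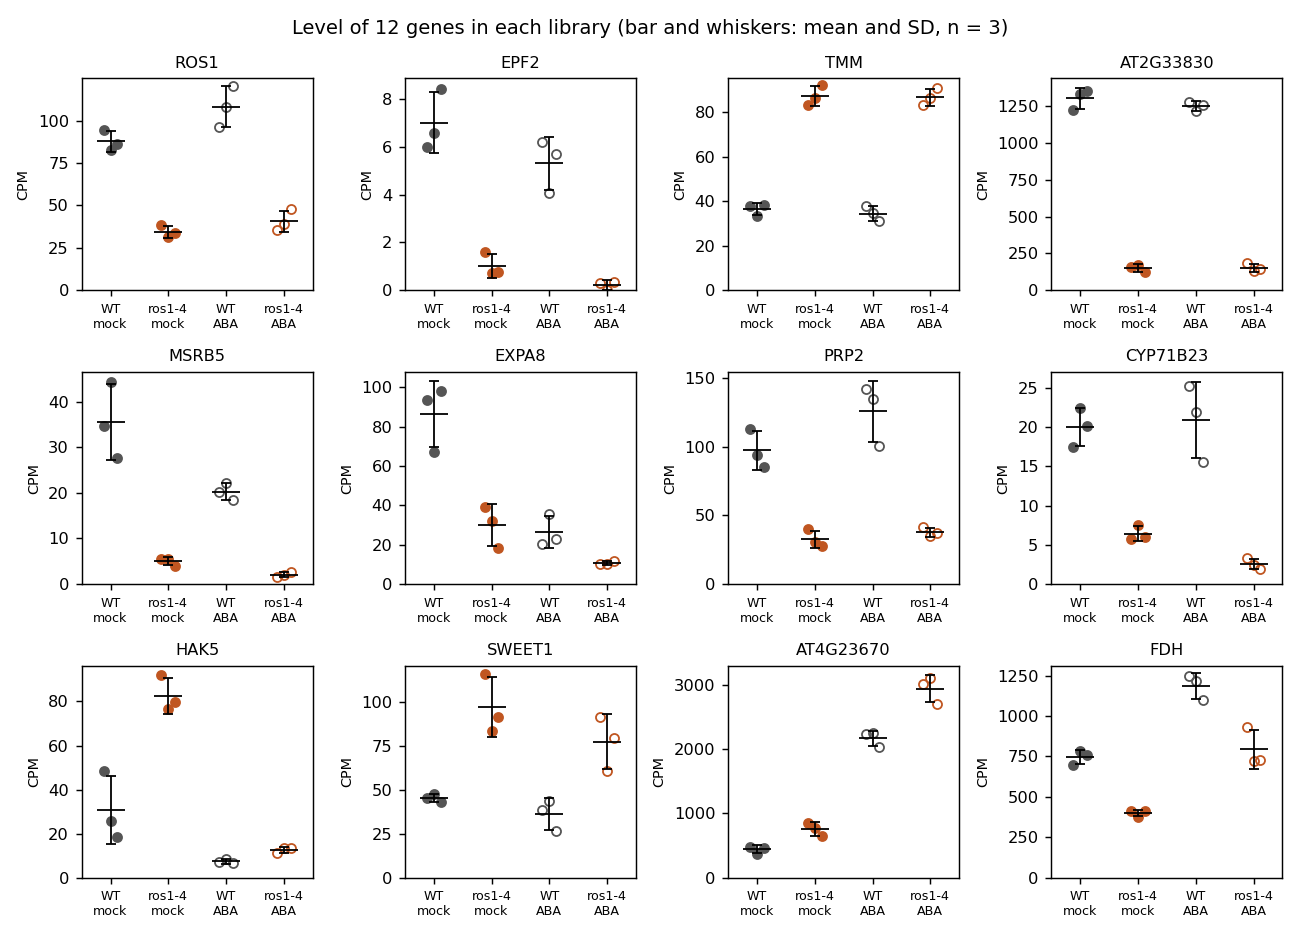
Levels (y axis, CPM, starting at 0) of 12 genes in each library of wild type (grey) and ros1-4 (orange) in mock (filled) and ABA (open), with mean and SD of 3 libraries. In mock the 3 ros1-4 points lie apart from the 3 wild type points in every panel, and the open points show the same direction under ABA.

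In what follows, genes described together without a count of tested members were put side by side by their annotation after the calls were known, and no statement is made on the group. Among wall proteins, EXPA8 and PRP2 fell. EXPA8, an expansin that loosens walls, had 93.4, 66.99 and 98.2 CPM in wild type and 39.2, 32.2 and 18.1 CPM in ros1-4. PRP2, a proline-rich wall protein, had 113, 94.1 and 85.2 CPM and 39.8, 30.3 and 28.04 CPM. In both genes the ros1-4 libraries lay clearly below, with -1.54 (SE 0.21, adjusted p = 0.000223) for EXPA8 and -1.56 (SE 0.18, adjusted p = 1.71e-05) for PRP2 by edgeR. AT1G62760 and AT3G27980, of the family of invertase and pectin methylesterase inhibitors, fell in ros1-4, and AT1G62760 was nearly silent there. AT1G62760 had 96 reads over the wild type libraries and 2 over those of ros1-4, a ratio of 36.8 with an exact 95% counting interval of 9.91 to 308 that covers counting error only. AT3G27980 had 4.51, 5.75 and 5.97 CPM in wild type and 1.39, 0.485 and 0.374 CPM in ros1-4 (-2.83 (SE 0.43, adjusted p = 0.00076) by edgeR). That gene overlaps AT3G27990 on the other strand over 1958 bases, and whether the counting used strand is not known, but AT3G27990 had 0.07. AT5G20740 of the same family went the other way. It had 10.8, 8.22 and 8.65 CPM in wild type and 15.9, 21.6 and 15.7 CPM in ros1-4 (0.95 (SE 0.19, adjusted p = 0.0186) by edgeR), a call lost with wild type mock replicate 2 (0.898) or 3 (0.902) or ros1-4 mock replicate 2 (0.800) left out.

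A further 5 called genes, AT2G14900, AIR3, AT2G19970, AT4G07820 and AT2G41640, have a secreted or sugar-transferring product by their annotation. AT2G14900, of the gibberellin-regulated peptide family, had 76.3, 76.4 and 66.7 CPM in wild type and 31.1, 29.6 and 35.3 CPM in ros1-4. Its groups were far apart, with -1.18 (SE 0.13, adjusted p = 8.93e-06) by edgeR. The subtilisin-like protease AIR3, known from the emergence of lateral roots, had -0.68 (SE 0.11, adjusted p = 0.000937) by edgeR from 80.6 ± 3.796 CPM in wild type and 50.4 ± 2.902 in ros1-4 (mean ± SD, n = 3). The CAP-domain genes AT2G19970 and AT4G07820, relatives of pathogenesis-related protein 1, had -1.31 (SE 0.20, adjusted p = 0.000642) and -2.86 (SE 0.52, adjusted p = 0.00803) by edgeR. AT4G07820 lost its call with wild type mock replicate 3 (-2.65) or ros1-4 mock replicate 2 (-2.795) or 3 (-2.22) left out. AT2G41640, a glycosyltransferase of family 61, had -2.19 (SE 0.32, adjusted p = 0.000481) by edgeR. That value rests on its other transcript models, since its first model alone had -0.35 (edgeR adjusted p = 0.96), and the locus overlaps AT2G41650 over 1144 bases.

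BGLU35, AT4G15390, PMAT2 and AT5G38550 all fell. BGLU35, a beta glucosidase of the group that splits glucosinolates, had 12.8, 17.1 and 8.26 CPM in wild type and 0.398, 0 and 0.561 CPM in ros1-4. The gene was close to silent in the mutant, with -5.07 (SE 0.63, adjusted p = 6.32e-05) by edgeR. It was the only one called of 13 tested glucosinolate genes, whose median was -0.05, beside 0.448% called over all genes. AT4G15390, an acyltransferase of the HXXXD type, had 165, 146 and 63.7 CPM in wild type and 51.97, 28.8 and 25.05 CPM in ros1-4. Wild type replicate 3 was much nearer to the mutant than the other two were, and the value was -1.79 (SE 0.29, adjusted p = 0.00173) by edgeR. With the covariate its sign turned, to 0.33 with an edgeR adjusted p of 0.997. PMAT2, which adds malonyl groups to phenolic glucosides, had -0.87 (SE 0.15, adjusted p = 0.0048) by edgeR, a call lost with ros1-4 mock replicate 3 (-0.72) left out. The lectin-like gene AT5G38550 had 67 reads over the wild type libraries and none over those of ros1-4, at least 17.1-fold lower against a floor of 3 reads over the group.

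A row of cytochrome P450 genes of the CYP71B subfamily on chromosome 3 held a rise and a fall. CYP71B23 had 17.5, 22.4 and 20.1 CPM in wild type and 5.77, 7.51 and 5.98 CPM in ros1-4, and CYP71B19 had 12.01, 11.9 and 10.8 CPM and 42.8, 24.5 and 18.1 CPM. CYP71B23 fell, with a log2 fold change of -1.65 (SE 0.22, adjusted p = 0.000162) and CYP71B19 rose, with 1.31 (SE 0.28, adjusted p = 0.0298) with edgeR, with neither pair of groups overlapping. The genes lie 17.5 kb apart. The rise was lost with any 1 of the libraries other than ros1-4 mock replicate 3 left out (0.88 to 1.401), and ros1-4 replicate 1 was the highest library. Between them CYP71B20 had 0.76 (SE 0.25) and CYP71B22 had -0.55 (SE 0.17), with edgeR adjusted p-values of 0.396 and 0.322. CYP71B3 at 0.35 and CYP71B24 at 0.11, on the far side of CYP71B23, also did not pass. As relatives in a row they may have reads that align to several of them, which are counted for none.

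FDH, AT1G08940, AT2G30230, SELT and MT3 fell, FDH and MT3 from high levels. FDH, the mitochondrial formate dehydrogenase, had 697, 784 and 758 CPM in wild type and 411, 378 and 415 CPM in ros1-4. The groups were well apart although the change was below 2-fold, at -0.896 (SE 0.10, adjusted p = 1e-05) by edgeR. AT1G08940, of the phosphoglycerate mutase family, had 15.5, 16.6 and 12.4 CPM in wild type and 1.79, 3.88 and 2.24 CPM in ros1-4 (-2.498 (SE 0.25, adjusted p = 3.03e-06) by edgeR). AT2G30230, annotated as a lumazine synthase, had -0.79 (SE 0.15, adjusted p = 0.0104) by edgeR, lost with wild type mock replicate 3 (-0.700) or ros1-4 mock replicate 3 (-0.67) left out. SELT, a relative of selenoprotein T, had 12.8, 11.5 and 11.4 CPM in wild type and 3.58, 4.605 and 4.86 CPM in ros1-4 (-1.44 (SE 0.21, adjusted p = 0.000516) by edgeR). MT3, a metallothionein that binds metal ions, had 1907, 1974 and 1674 CPM in wild type and 1395, 1271 and 1119.7 CPM in ros1-4. Its groups were close but apart, and the call at -0.55 (SE 0.12, adjusted p = 0.0263) by edgeR was lost with wild type mock replicate 1 (-0.53) or 2 (-0.505) or ros1-4 mock replicate 2 (-0.56) or 3 (-0.47) left out.

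Among transport genes, HAK5 and SWEET1 rose. HAK5 is the high-affinity potassium uptake transporter of roots, known to be induced when potassium is scarce. It had 48.3, 25.7 and 18.7 CPM in wild type and 91.8, 76.3 and 79.6 CPM in ros1-4. The wild type libraries were spread more widely than those of ros1-4 but stayed below them, and HAK5 rose, with 1.502 (SE 0.22, adjusted p = 0.000516) with edgeR. SWEET1, a glucose transporter of the plasma membrane, had 45.3, 47.9 and 42.9 CPM in wild type and 116, 83.4 and 91.6 CPM in ros1-4. Every ros1-4 library was above every wild type library, with 1.11 (SE 0.18, adjusted p = 0.00128) by edgeR. These were the 2 called among 14 tested potassium and sugar transport genes, with 9 above 0 and a median of 0.09, beside 0.448% called and 50.9% above 0 over all genes.

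AT4G19520, AT5G57565 and CPK22 rose, and CRK40 and AT3G46370 fell. AT4G19520, a disease resistance protein of the TIR-NBS-LRR class, had 16.02, 16.2 and 20.1 CPM in wild type and 38.2, 28.8 and 36.1 CPM in ros1-4. It rose, with 0.95 (SE 0.14, adjusted p = 0.000429) with edgeR, and the groups did not overlap. The kinase-like gene AT5G57565 had 2.75, 3.49 and 3.28 CPM in wild type and 8.96, 9.69 and 7.48 CPM in ros1-4, a rise of 1.42 (SE 0.26, adjusted p = 0.0056) by edgeR. CPK22, a calcium-dependent protein kinase, was close to 0 in wild type, with 0.25, 0.616 and 0.298 CPM, and had 2.79, 4.12 and 3.36 CPM in ros1-4. It rose, with 3.12 (SE 0.61, adjusted p = 0.014) with edgeR, a call lost with wild type mock replicate 1 (2.99) or 3 (2.85) or ros1-4 mock replicate 2 (2.98) or 3 (3.12) left out. The receptor-like kinase CRK40 fell from 4.76, 7.19 and 7.86 CPM in wild type to 2.39, 0.969 and 0.748 CPM in ros1-4. Its value of -2.29 (SE 0.43, adjusted p = 0.00887) by edgeR was lost with wild type mock replicate 3 (-2.11) or ros1-4 mock replicate 2 (-2.13) or 3 (-1.96) left out, and with its first transcript model alone (adjusted p = 0.057). The leucine-rich repeat kinase AT3G46370 had -2.09 (SE 0.44, adjusted p = 0.0268) by edgeR, lost with any 1 of the libraries other than wild type mock replicate 2 left out (-1.87 to -2.41).

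ZW9, of the TRAF-like family, fell from 81.3, 79.7 and 98.4 CPM in wild type to 24.7, 24.2 and 22.99 CPM in ros1-4, with very little spread in the mutant. The value was -1.86 (SE 0.13, adjusted p = 6.61e-09) by edgeR, and it held with the covariate. MSS3, a calmodulin-like calcium sensor, had -0.69 (SE 0.11, adjusted p = 0.001) by edgeR. AT3G47480, another EF-hand protein, had 5.51, 6.16 and 5.17 CPM in wild type and 17.3, 13.3 and 9.35 CPM in ros1-4. It rose, with 1.26 (SE 0.23, adjusted p = 0.0056) with edgeR, lost with wild type mock replicate 3 (1.18) or ros1-4 mock replicate 1 (1.01) left out. ECS1, known as a cell wall protein linked to disease resistance, had 85.8, 69.05 and 86.6 CPM in wild type and 214, 169 and 110.1 CPM in ros1-4 and rose, with 1.02 (SE 0.22, adjusted p = 0.0346) with edgeR, lost with any 1 of the libraries other than ros1-4 mock replicate 3 left out (0.78 to 1.09). The kinase ASG5 had 0.44 (SE 0.09, adjusted p = 0.0282) by edgeR, lost with any 1 of the libraries other than wild type mock replicate 3 left out (0.41 to 0.47). The glutaredoxin gene AT2G47880 had 3.504, 2.26 and 2.39 CPM in wild type and 14.1, 4.85 and 5.61 CPM in ros1-4, where replicate 1 stood far above the others. Its 1.65 (SE 0.34, adjusted p = 0.021) by edgeR was lost with wild type mock replicate 2 (1.57) or 3 (1.54) or ros1-4 mock replicate 1 (0.997) left out. Of 8 tested salicylic acid and immune genes none was called, beside 0.448% of all genes. WRKY70, a defence regulator, had 0.45 (SE 0.14, edgeR adjusted p = 0.368) and EDS5, a salicylic acid transporter, 0.29 (SE 0.20).

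AT4G23670 and AT4G23680 lie 2.23 kb apart on chromosome 4 and encode proteins of the polyketide cyclase and lipid transport superfamily. AT4G23670 had 483, 369 and 469 CPM in wild type and 857, 768 and 650.1 CPM in ros1-4. AT4G23680 had 17.8, 15.6 and 11.04 CPM and 23.9, 20.8 and 24.1 CPM. Both were higher in every ros1-4 library, by 0.78 (SE 0.12, adjusted p = 0.00064) and 0.701 (SE 0.15, adjusted p = 0.0269) with edgeR. That of AT4G23680 was lost with wild type mock replicate 3 (0.47) or ros1-4 mock replicate 1 (0.68) or 3 (0.67) left out, and in the fits of the 6 and of the 9 mock libraries (0.69 in each). As related neighbours they may have reads that align to both, which are counted for neither, so the second value is uncertain. Their promoters are shown because the genes moved together: AT4G23670 at chr4:12333905-12334154 and AT4G23680 at chr4:12337600-12337849, both on the minus strand. Capitals mark runs of at least 10 bases that both promoters hold.
AT4G23670: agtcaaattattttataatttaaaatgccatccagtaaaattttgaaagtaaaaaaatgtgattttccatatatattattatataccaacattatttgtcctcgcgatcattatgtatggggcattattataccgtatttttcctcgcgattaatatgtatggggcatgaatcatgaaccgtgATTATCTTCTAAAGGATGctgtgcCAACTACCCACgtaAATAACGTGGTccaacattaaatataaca
AT4G23680: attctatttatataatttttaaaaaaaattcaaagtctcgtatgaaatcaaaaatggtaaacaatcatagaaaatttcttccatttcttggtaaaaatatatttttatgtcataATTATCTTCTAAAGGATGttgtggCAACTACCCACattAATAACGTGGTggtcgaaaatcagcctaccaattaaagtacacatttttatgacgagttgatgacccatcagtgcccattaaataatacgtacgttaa
There were 3 such runs in the same order, 40 bases in all, the longest of 18 bases.

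Of 90 tested loci annotated as pseudogenes, 5 were called (5.56%), all lower, beside 62 of 15597 protein-coding genes (0.398%). AT1G35612 had 59.6, 51.99 and 57.8 CPM in wild type and 25.9, 25.9 and 28.2 CPM in ros1-4. The mutant was at about the same level in its 3 libraries, with -1.08 (SE 0.12, adjusted p = 1.94e-05) by edgeR. AT5G28145 and AT3G13270 had -2.51 (SE 0.35, adjusted p = 0.000327) and -2.42 (SE 0.30, adjusted p = 6.32e-05) by edgeR. AT1G20390 had -0.997 (SE 0.18, adjusted p = 0.0056) by edgeR and was lost with ros1-4 mock replicate 2 (-0.89) left out. AT4G08115 had -1.14 (SE 0.22, adjusted p = 0.0123) by edgeR and was lost with wild type mock replicate 3 (-1.13) or ros1-4 mock replicate 1 (-1.09) or 2 (-1.14) left out. Of 70 loci of the class other RNA, 2 fell (2.86%). AT1G15405 had 20.02, 15.8 and 16.2 CPM in wild type and 2.79, 2.42 and 2.06 CPM in ros1-4, and -2.82 (SE 0.35, adjusted p = 6.32e-05) by edgeR. In wild type under ABA this locus had 9.06, 9.21 and 22.6 CPM. Multiply aligned reads made 6.34%, 6.32% and 11.4% of all reads listed in these libraries, in the same order. The covariate fit gave AT1G15405 a log2 value of -1.39 (edgeR adjusted p = 0.511), which was not called. Apart from that fit, the part of multiply aligned reads in its fall was not tested. AT1G67105 had -3.45 (SE 0.62, adjusted p = 0.0056) by edgeR, lost with ros1-4 mock replicate 1 (-3.17) or 3 (-3.12) left out.

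AT2G33830, of the dormancy and auxin associated family, had the smallest p of all genes. It had 1221, 1335 and 1355 CPM in wild type and 155, 174 and 123 CPM in ros1-4, and -3.11 (SE 0.14, adjusted p = 3.23e-12) by edgeR, on reads of models other than its first. Its flanking genes MBAC1 and FES1 had -0.02 and 0.09. HEI10, a ring finger protein known from meiotic crossovers, had 14.5, 13.97 and 11.8 CPM in wild type and 3.38, 2.18 and 4.49 CPM in ros1-4. Its fall of -1.94 (SE 0.31, adjusted p = 0.00121) by edgeR is uncertain as to the gene, since MRD1 overlaps it over 1446 bases on the other strand. MRD1 was below the count filter, with 33 reads in wild type and 11 in ros1-4. ILA, a large HEAT-repeat protein known from immunity, had -1.82 (SE 0.36, adjusted p = 0.0155) by edgeR, lost with wild type mock replicate 1 (-1.78) or 2 (-1.77) or ros1-4 mock replicate 2 (-1.51) or 3 (-1.55) left out.

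The remaining called genes have little known function or small changes. AT3G18560 fell from 19.3, 19.7 and 18.8 CPM in wild type to 6.37, 5.57 and 8.41 CPM in ros1-4 (-1.48 (SE 0.19, adjusted p = 7.56e-05) by edgeR) and held with the covariate. AT4G26288 had -1.39 (SE 0.20, adjusted p = 0.000367) by edgeR and overlaps emb1027 over 330 bases on the other strand. The calls of AT3G43850 at -1.44, AT1G44608 at -1.86 and AT4G01350 at -1.81 were each lost with some library left out. For AT3G43850 this was with wild type mock replicate 2 (-1.36) or ros1-4 mock replicate 1 (-1.44) or 3 (-1.39) left out, for AT1G44608 with wild type mock replicate 3 (-1.58) or ros1-4 mock replicate 1 (-1.600) or 2 (-1.72) left out and for AT4G01350 with wild type mock replicate 1 (-1.75) or 2 (-1.704) or ros1-4 mock replicate 2 (-1.81) or 3 (-1.63) left out. AT5G23700 at -2.07 lost its call with any 1 of the 6 libraries left out (-1.85 to -2.45). A pair of genes of the general machinery, MED8 of the Mediator complex at -0.64 and the ribosomal stalk protein gene AT2G27720 at -0.41, fell slightly. MED8 was lost with wild type mock replicate 1 (-0.61) or 2 (-0.62) or ros1-4 mock replicate 1 (-0.61) or 3 (-0.56) left out and AT2G27720 with any 1 of the libraries other than wild type mock replicate 3 left out (-0.37 to -0.42). PDIL5-2, a disulfide isomerase-like protein next to AT1G35612, had -0.404 and was lost with any 1 of the 6 libraries left out (-0.36 to -0.44). AT1G56660 at -0.54 was lost with wild type mock replicate 2 (-0.51) or ros1-4 mock replicate 3 (-0.44) left out, AT1G27670 at -1.13 with any 1 of the libraries other than wild type mock replicate 3 left out (-1.01 to -1.24) and AT3G20340 at -0.62 with any 1 of the libraries other than wild type mock replicate 2 left out (-0.53 to -0.69). Of the higher genes, AT5G55620 at 0.78 was lost with any 1 of the libraries other than wild type mock replicate 3 left out (0.72 to 0.79) and AT1G69160 at 0.44 with any 1 of the 6 libraries left out (0.39 to 0.48). AT5G17165 at 1.72 was lost with wild type mock replicate 1 (1.53) or 2 (1.64) or ros1-4 mock replicate 1 (1.605) or 3 (1.66) left out.

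A group of 5 called loci are copies of ribosomal RNA or lie in the stretch of chromosome 2 that copies mitochondrial DNA. Of 20 tested loci of this type 5 fell, beside 0.341% of all genes, and 18 had a log2 value below 0, where 50.9% of all genes lay above it. The 18S RNA locus AT3G41768 had 9654, 11132 and 8267 CPM in wild type and 1892, 1634 and 2472 CPM in ros1-4. Every mutant library lay far below, with -2.28 (SE 0.24, adjusted p = 5.19e-06) by edgeR. AT2G07732, annotated as a Rubisco large chain domain, and AT2G07698, an ATPase alpha subunit, had -2.82 (SE 0.28, adjusted p = 3.03e-06) and -1.48 (SE 0.14, adjusted p = 1.73e-06) by edgeR. AT2G07687, a cytochrome oxidase subunit, had -2.36 (SE 0.47, adjusted p = 0.0154) and the 18S RNA locus AT2G01010 -2.79 (SE 0.52, adjusted p = 0.0082) by edgeR. AT2G07687 lost its call with wild type mock replicate 2 (-2.05) or ros1-4 mock replicate 1 (-1.96) or 2 (-2.33) left out and AT2G01010 with wild type mock replicate 3 (-2.28) or ros1-4 mock replicate 1 (-2.56) or 2 (-2.69) left out. AT2G01008, the gene beside AT2G01010, had -1.18 and was lost with any 1 of the 6 libraries left out (-1.09 to -1.32). Loci of this type took 0.848% to 1.21% of counted reads in wild type and 0.183% to 0.286% in ros1-4, the same direction as the multiply aligned share. These loci have near-identical copies, so their values are uncertain. None of the 5 was called in the covariate fit. There AT3G41768 had -0.70 (edgeR adjusted p = 0.511), AT2G07687 -0.39 (edgeR adjusted p = 0.995) and AT2G07732 -1.19 (edgeR adjusted p = 0.133). AT2G07698 had -0.83 (edgeR adjusted p = 0.14), while AT2G01010 stayed at -2.47 (edgeR adjusted p = 0.781). Apart from that fit, the part of multiply aligned reads in these falls was not tested.

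The ABA libraries of ros1-4 and wild type share no library with the mock comparison and measure the same genotype difference again. The multiply aligned share differed there as well, with 6.32% to 11.4% of all reads listed in wild type and 3.86% to 4.46% in ros1-4, without overlap, and its part in the values under ABA was not tested. All 71 genes had the same sign there, and 49 were called by edgeR, where 0.681% of all genes were. These are 69.0% of the 71 and 45.4% of the 108 genes called under ABA. Of the 17 higher genes 8 were called again, beside 0.202% of all genes called higher, and of the 54 lower genes 41, beside 0.479%. The groups did not overlap in 69 of the 71, as in 13.1% of all genes. The median size of the difference in the mock direction was 1.22 under ABA, against 1.48 in mock, the comparison by which the genes had been called.

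Some genes stood further apart under ABA and some less. EPF2 had 6.19, 4.08 and 5.69 CPM in wild type and 0.285, 0 and 0.36 CPM in ros1-4 under ABA, a log2 fold change of -4.36 (SE 0.44, adjusted p = 2.29e-06) by edgeR. CYP71B23 had -3.05 there, beside -1.65 in mock, and ILA -4.08, beside -1.82. HAK5 was low in all ABA libraries, with 7.23, 8.604 and 6.59 CPM in wild type and 11.1, 13.5 and 13.4 CPM in ros1-4. Its difference of 0.76 (SE 0.30, adjusted p = 0.45) was not called by edgeR. BGLU35 and AT4G15390 were also low under ABA in both genotypes, at most 1.20 and 3.90 CPM, and were not called. AT4G23670 was several times higher under ABA in both genotypes, 2229, 2246 and 2031 CPM in wild type and 3016, 3104 and 2701 CPM in ros1-4. The mutant was still above wild type in every library, but 0.44 (SE 0.12, adjusted p = 0.104) did not pass by edgeR. A test of whether the genotype difference itself differed between treatments called 0 of 15853 genes with edgeR, and 521 had an unadjusted p under 0.05, 18 of the 71 among them. No other tool was run for that test.

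**Figure D4:**
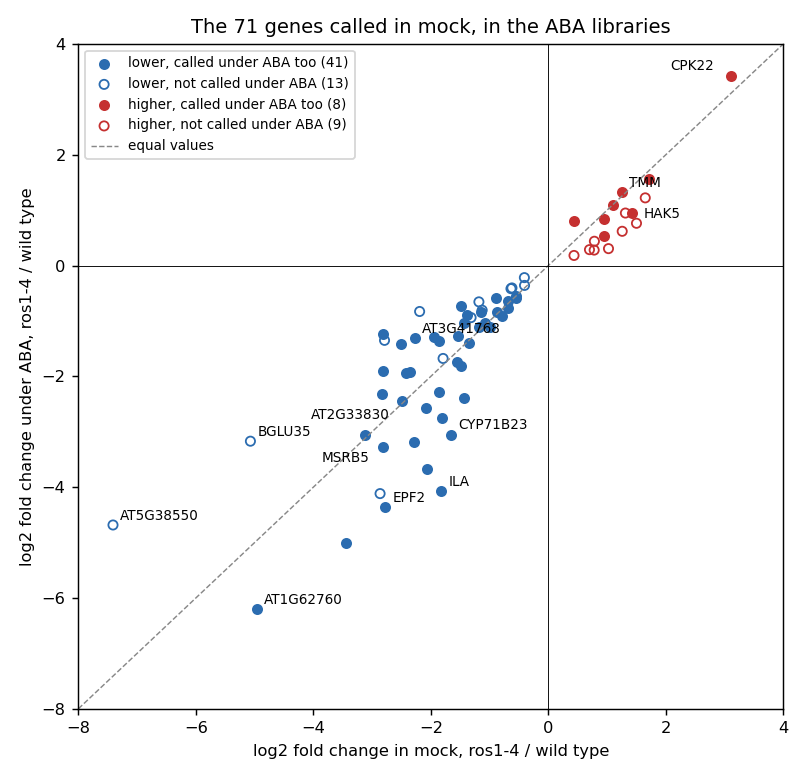
Log2 fold changes of ros1-4 over wild type for the 71 genes called in mock, in the mock libraries (x axis) and in the separate ABA libraries (y axis), filled where the gene was also called under ABA. All points lie in the lower left or upper right field, 49 of them filled. The line marks equal values.

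The other allele gives a further view. In mock it shares the wild type libraries with ros1-4, so only values side by side are given. By edgeR 1.32% of all genes were called for ros1-3 against wild type in mock and 1.27% between the alleles. Multiply aligned reads made 7.03%, 9.45% and 6.53% of all reads listed in ros1-3 mock. These shares lay between those of wild type mock (9.80% to 13.0%) and of ros1-4 mock (3.46% to 4.62%), without overlap. The part of this share in the values of ros1-3 and between the alleles was not tested. Several genes had like values in both: AT2G33830 with -3.11 in ros1-4 and -3.48 in ros1-3, AT1G67105 with -3.45 and -3.53, and AT4G19520 with 0.95 and 0.91. Others stood apart. PRP2 had 71.6, 127 and 88.1 CPM in ros1-3 mock, around the wild type range, and a log2 value of -0.02 against wild type. The test of ros1-4 against ros1-3 gave -1.54 (SE 0.18, adjusted p = 1.98e-05) by edgeR for this gene. CYP71B23 had -0.15 in ros1-3, and -1.504 (SE 0.23, adjusted p = 0.000797) between the alleles by edgeR. EXPA8 had -0.34, and -1.204 (SE 0.22, adjusted p = 0.00422) between the alleles. EPF2 had 3.99, 4.03 and 5.296 CPM in ros1-3 mock, between the other genotypes, with -0.71 (SE 0.28, adjusted p = 0.275) against wild type and -2.07 (SE 0.41, adjusted p = 0.00776) between the alleles by edgeR. FDH went the other way, with -1.59 in ros1-3, further below wild type than ros1-4, and 0.69 (SE 0.10, adjusted p = 0.000322) between the alleles by edgeR. ROS1 itself had 51.2, 53.4 and 57.7 CPM in ros1-3 mock, above all ros1-4 libraries, and -0.64 (SE 0.12, adjusted p = 0.00657) between the alleles.

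**Figure D5:**
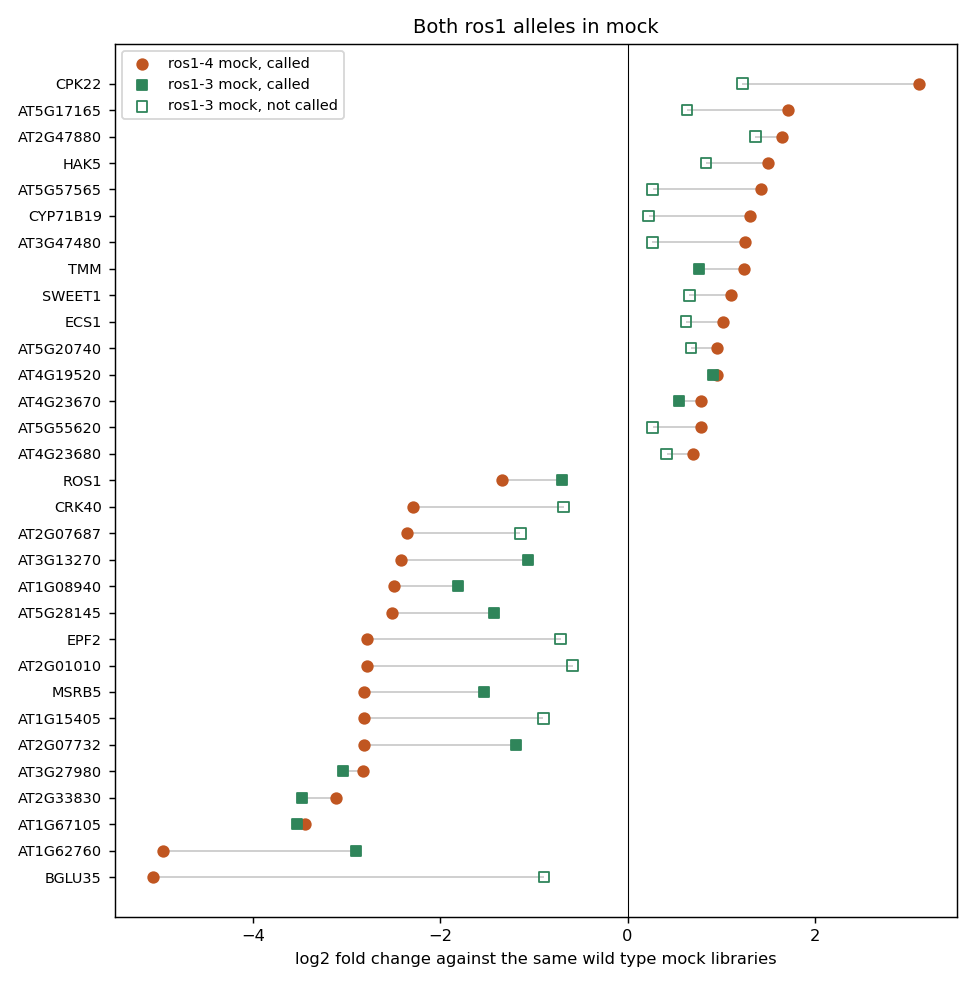
Log2 fold changes against the same wild type mock libraries (x axis) for the 31 called genes described in full, in ros1-4 (circles) and ros1-3 (squares, filled where called). Genes such as AT2G33830 and AT4G19520 have like values in both alleles, while BGLU35, EPF2 and CYP71B19 lie nearer to 0 in ros1-3.

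Under ABA ros1-3 was compared with wild type in libraries that the mock comparison of ros1-4 does not use. Of the 71 genes 63 had the same sign and 25 were called in the same direction, 35.2% of the 71 and 9.16% of the 273 genes called there, beside 1.72% of all genes. A single gene, AT1G56660, was called in the opposite direction, with 0.38 in ros1-3 under ABA and -0.54 in ros1-4 in mock. ZW9 had -1.39, AT1G08940 -2.57 and ILA -4.85 in ros1-3 under ABA. TMM had 0.82 and SWEET1 0.76, both called, and MSRB5 -1.12.

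The called genes lay on all 5 chromosomes: 20 on chromosome 1 (0.485% of the genes tested there), 18 on chromosome 2 (0.749%), 13 on 3 (0.412%), 12 on 4 (0.499%) and 8 on 5 (0.213%). Those on chromosome 2 include AT2G01010, AT2G07687, AT2G07698 and AT2G07732, the uncertain ribosomal RNA and mitochondrial-copy loci described above. The called gene nearest to ROS1 was AT2G33830, 0.997 Mb away. Both flanking genes of ROS1 were not called, AT2G36480 at 0.31 and AT2G36500 at -0.003. Over all called genes, 6 of 141 places for a nearest tested neighbour were held by another called gene, beside 0.448% called over all genes. They came from AT2G01008 with AT2G01010, AT4G23670 with AT4G23680 and AT1G35612 with PDIL5-2, each pair counted from both sides. The values of AT2G01010 and AT4G23680 are uncertain, as said above. Of the neighbours in all 141 places 75 had the sign of the called gene beside them, and the median size of their difference was 0.107, beside 0.119 over all genes.

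The 250 bases before the start of the called genes held the motifs searched at these shares. TATAAA was in 12 of 17 higher genes (70.6%), 26 of 54 lower genes (48.1%) and 46.3% of all 15841 promoters read. The G-box was in none of the higher genes, 7.41% of the lower and 7.41% of all. The W-box was in 23.5%, 18.5% and 28.3%, and site II in 5.88%, 5.56% and 16.6%. The median number of CG pairs was 5 in each of the 3 sets.

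Of 23 ABA response and signalling genes none was called, beside 0.448% of all genes, with a median of -0.01. The receptor gene PYR1 had -0.26 (SE 0.10) and the dehydrin gene ERD10 -0.35 (SE 0.13). None of 6 NAD synthesis and salvage genes was called, with NAPRT2 at 0.31 and NIC3 at 0.54. Over all genes, 0.448% were called and 50.9% had values above 0. The 8 hypoxia genes all had values below 0, with a median of -0.21 and ADH1, alcohol dehydrogenase, at -0.62 (SE 0.29). So did the 7 clock genes, with a median of -0.13 and TOC1 at -0.203 (SE 0.08), and the 4 dark and starvation genes, with a median of -0.16 and DIN10 at -0.74 (SE 0.29). None of these hypoxia, clock, and dark and starvation genes was called, but AT2G33830, which was listed with the last of them and fell by 3.11 on the log2 scale, was not counted because its annotation lacks the symbol under which it was listed. Of the 10 root markers 1 lay above 0 and the median was -0.19, with the phosphate transporter PHT1;1 at -0.399 (SE 0.18). The 11 tested photosynthesis genes had a median of 0.00055, with RBCS2B at -0.22 (SE 0.14).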

How the data were processed

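Messenger RNA of whole seedlings was counted in 18 libraries. The authors deposited whole-number read counts for each transcript model. Per the submitters' processing notes they used HTSeq 0.6.1, TopHat2 2.0.8, Trim Galore 0.2.8 and SAMtools with TAIR10. Whether the counting used strand is not stated there or in the labels. Reads that overlap several models of a locus go to the row of ambiguous reads, so loci with several models (5883 of 32399) are understated. Ambiguous reads were 33.0% of counted and ambiguous reads in both genotypes. Multiply aligned reads made 11.5% of all rows in wild type and 3.89% in ros1-4, and reads outside features 3.63% and 2.60%. The 5 summary rows entered neither library sizes nor tests.

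The 40466 models were summed per locus, and names, positions and promoters were taken from RefSeq TAIR10.1, which matched 31912 loci. Loci of the organelle chromosomes were not analysed here, so the alternative without organelle loci covers ribosomal RNA and the mitochondrial copy on chromosome 2. The tests used edgeR 4.0.16 (R 4.3.3) with scaling by the trimmed mean of M values, genes kept by filterByExpr and quasi-likelihood F tests, fitted once over 18 libraries in 6 groups (12 residual degrees of freedom, common biological coefficient of variation 0.0962, scaling factors 0.907 to 1.12). The threshold for a call was a Benjamini-Hochberg adjusted p of 0.05 over 15853 genes. The SE is the absolute log2 fold change over the square root of F. CPM are counts scaled by library size and factor. Library shares were compared by exact permutation. Without molecular identifiers, bounds and intervals reflect counting error alone. The script was checked on simulated data. DESeq2 1.42.0 was an alternative, and the closing section gives the others.

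The comparison, its genes and all 15 gene lists were chosen with earlier results of these data known, so the lists are no independent evidence. Of 186 list members 182 were kept, those whose locus carries the listed symbol or synonym in RefSeq, and the 4 left out include the called gene AT2G33830. Every called gene may be named. Given in full are ROS1, up to 15 genes per direction with the largest change among called genes whose average log2 CPM is 1 or more, and from each list up to 4 called members, or up to 2 by smallest p.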

Additional observations from a re-analysis of the deposited data

How the results depend on the processing

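Of the 71 calls, 71 held with DESeq2 size factors in edgeR, 70 with upper quartile scaling, 68 with DESeq2's own test (which called 86 genes in all), 62 with the replicate block and 66 with the ribosomal and mitochondrial-copy loci left out, which removes 5 of them. Without the count filter edgeR called 108 genes, 83 of them lower, and 70 of the 71 were among them. With the share of multiply aligned reads in the model it called 11, 2 higher and 9 lower. With a minimum fold of 1.5 it called 32, 2 higher and 30 lower. The genes called higher numbered 17 with all libraries, 9 in a fit of the 6 libraries alone and 8 in a fit of the 9 mock libraries, where 49 and 50 of the 71 calls held. Leaving out 1 library at a time gave 47 to 68 calls, 10 to 17 of them higher and 37 to 51 lower. The fewest calls, 47, came without ros1-4 mock replicate 2. The fewest higher calls, 10, came without wild type mock replicate 2 or ros1-4 mock replicate 2, and 11 without ros1-4 mock replicate 1. With fewer libraries the fit has fewer degrees of freedom. AT4G15390 was the only called gene to change sign, with 0.33 under the covariate. Of the list members named as not called, 3 passed in some alternative: WRKY70 without ros1-4 mock replicate 3, SPCH with DESeq2, without the count filter or without ros1-4 mock replicate 1, and MSRB4 with DESeq2, without the count filter or without wild type mock replicate 3. Replicate numbers did not pair the samples: deviations of same-numbered wild type and ros1-4 libraries correlated at -0.01, -0.11 and -0.13, and each ros1-4 library correlated best with a wild type library of another number. As a block, the replicate number gave 64 calls. Genes of a few CPM rest on few reads in the shallower libraries, such as 67 reads of AT5G38550 over wild type, and smaller differences there were not detectable at this depth.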

Other observations

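Apart from BGLU35, of the group that splits glucosinolates, no tested gene of glucosinolate synthesis or breakdown was called, beside 0.448% of all genes. MAM1, which starts the chain elongation of methionine-derived glucosinolates, had 102, 121 and 88.4 CPM in wild type mock and 67.7, 79.00 and 58.9 CPM in ros1-4 mock. The groups did not overlap, but the log2 value of -0.596 (SE 0.20) had an edgeR adjusted p of 0.424. CYP79F1, a later enzyme of that pathway, had -0.99 (SE 0.46, edgeR adjusted p = 0.712).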
